A study of Mus musculus with 6 samples.

Results

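Matrix metalloproteinases are secreted or membrane-bound zinc enzymes that cut collagens, elastin and other matrix proteins, and the tissue inhibitors of metalloproteinases (Timp proteins) block them by binding the active site. Both sets of genes are known for their part in remodelling of the pulmonary artery wall and of the alveolar wall, where neutrophils, macrophages, fibroblasts and smooth muscle cells each make different members. Most of the enzymes are made as inactive precursors, so a transcript level says nothing of the activity of the protein. The 10 genes described here were 7 metalloproteinases (Mmp2, Mmp3, Mmp8, Mmp9, Mmp12, Mmp14 and Mmp19) and 3 inhibitors (Timp1, Timp2 and Timp3). They were taken as every probe set that carried 1 of these symbols alone in the platform annotation, which gave 23 of the 45037 probe sets on the array. Of these genes 4 had 1 probe set, 6 had several, and Timp2 had the most, with 6.

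Gene expression was measured in whole lung of mice on 6 Affymetrix arrays, each made from a pool of 3 animals, in 3 groups of 1 female and 1 male pool. The transgenic groups carried an inducible, dominant-negative form of the BMP type 2 receptor (SM22-dnBMPR2) and had it switched on for 1 week or for 8 weeks. The SM22 promoter, which drives the system, is active in smooth muscle. The controls carried the transactivator alone per the series description, which the label of the male control repeats (SM22-rtTA only), while the label of the female control names only the FVB/N strain. The transgenic mice had raised right ventricular pressure at death. The inducer, the age of the animals and the activation time of the controls are not given in the sources used here, and any such difference between the groups cannot be told apart from the transgene. The 2 pools of a group were of different sex, so p-values measured the spread between a female and a male response and not that between litters or animals.

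Values are log2 intensities after quantile normalization, with values under 15.46 (log2 3.95) raised to that floor. A probe set was tested where its mean over the 6 arrays lay above the 40th percentile, which 27022 probe sets and 21 of the 23 described here passed. The 2 that did not were 1 probe set of Mmp19 and 1 of Timp2, the latter at the floor in all 6 pools. The median deposited intensity was 50.49 and 52.92 on the 8 week arrays and 57.1 to 63.41 on the other 4. Of the 14 markers of lung epithelium, 13 were on the array and all 13 lay above the floor in every pool, with a summed intensity of 76340 to 81020. Markers of heart muscle, a tissue that can come with a lung sample, summed to 11130 to 15770 in the control and 1 week pools and to 2457 and 5791 at 8 weeks. Their part in the results was not tested.

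Mmp12, Mmp3 and Mmp8 lie in a row of 10 neighbouring protein-coding genes on chromosome 9, all of them metalloproteinases, in the order Mmp13, Mmp12, Mmp1b, Mmp3, Mmp1a, Mmp10, Mmp8, Mmp27, Mmp20 and Mmp7 in the GRCm38.p6 gene table. Promoter windows from RefSeq (build GRCm38.p6) were at hand for 7 of the 10 genes described (not for Mmp2, Mmp9 and Mmp19), and the 250 bases before each start were searched on both strands for TGAGTCA, the binding motif of the AP-1 factors, for TATAAA and for the GC box GGGCGG. The last 120 bases before the start are shown for the 4 genes with the largest changes at 8 weeks among those with a window, because 3 of them are neighbours in this row, with TGAGTCA and TATAAA in capitals. Mmp3 is at chr9:7445702-7445821, Mmp12 at chr9:7347254-7347373 (the second of its 2 annotated starts), Mmp8 at chr9:7558309-7558428 and Timp1 at chrX:20870046-20870165, all on the plus strand.
Mmp3: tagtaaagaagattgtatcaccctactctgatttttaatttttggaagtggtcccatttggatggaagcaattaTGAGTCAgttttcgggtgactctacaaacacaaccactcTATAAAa
Mmp12: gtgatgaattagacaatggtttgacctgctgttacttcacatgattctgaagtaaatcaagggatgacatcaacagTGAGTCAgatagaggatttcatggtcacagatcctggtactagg
Mmp8: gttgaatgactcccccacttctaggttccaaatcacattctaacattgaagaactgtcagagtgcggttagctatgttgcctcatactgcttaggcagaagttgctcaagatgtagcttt
Timp1: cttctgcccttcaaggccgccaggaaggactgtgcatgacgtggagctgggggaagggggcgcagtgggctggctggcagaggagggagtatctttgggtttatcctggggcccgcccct

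TGAGTCA stood 46 bases before the start in Mmp3 and 44 bases before the second start in Mmp12, and was not in the 250 bases before the starts of Mmp8, Timp1, Mmp14, Timp2 and Timp3 or before the first start of Mmp12. Of all 32851 promoter windows 4.46% held it. TATAAA was in the Mmp3 window alone among these genes, 7 bases before the start, against 12.4% of all windows. GGGCGG, held by 32.7% of all windows, was in those of Mmp14, Timp1, Timp2 and Timp3 and in none of the 3 chromosome 9 genes. The motifs did not overlap each other, and a match is a description of letters, not of a bound site.

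The main comparison asked which of these genes differed in lung after 8 weeks of activation. The enzymes of inflammatory cells (Mmp8, Mmp9 and Mmp12), the stromelysin Mmp3 and the inhibitor Timp1 stood 2.83-fold to 5.05-fold higher at their brightest probe sets, while Mmp2 and the brightest probe set of Timp2 stood within 0.08 of control on the log2 scale and every probe set of Timp3 stood lower. By limma with Benjamini-Hochberg adjustment over all 27022 probe sets, Mmp8 and 1 of the 2 probe sets of Mmp9 rose and no other member passed. These were 2 of 21 probe sets (9.52%), where 0.207% of all probe sets tested rose and 0.389% fell. In 8 of the 21 (38.1%) both 8 week pools lay above both control pools, against 23% of all probe sets, and in 6 (28.6%) both lay below, against 18.8%. The 6 were every probe set of Timp3 and the 2 dimmest tested ones of Timp2, so they stand for few genes. Among the 8 was Mmp12, which was bright enough to test only through its 8 week pools. In 5 (23.8%) the value was at least 2-fold higher in each sex, as in 0.918% of all. The 5 were those of Mmp3, Mmp8 and Timp1 and both of Mmp9. At an unadjusted limma p below 0.05 stood 9 of the 21 (42.9%) and 23% of all. In both sexes 12 were higher and 7 lower, where 36.5% of all were higher and 29% lower. The median change of the 21 was 0.08, beside 0.03 for all probe sets tested, and the range was −1.46 to 2.34.

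**Figure D1:**
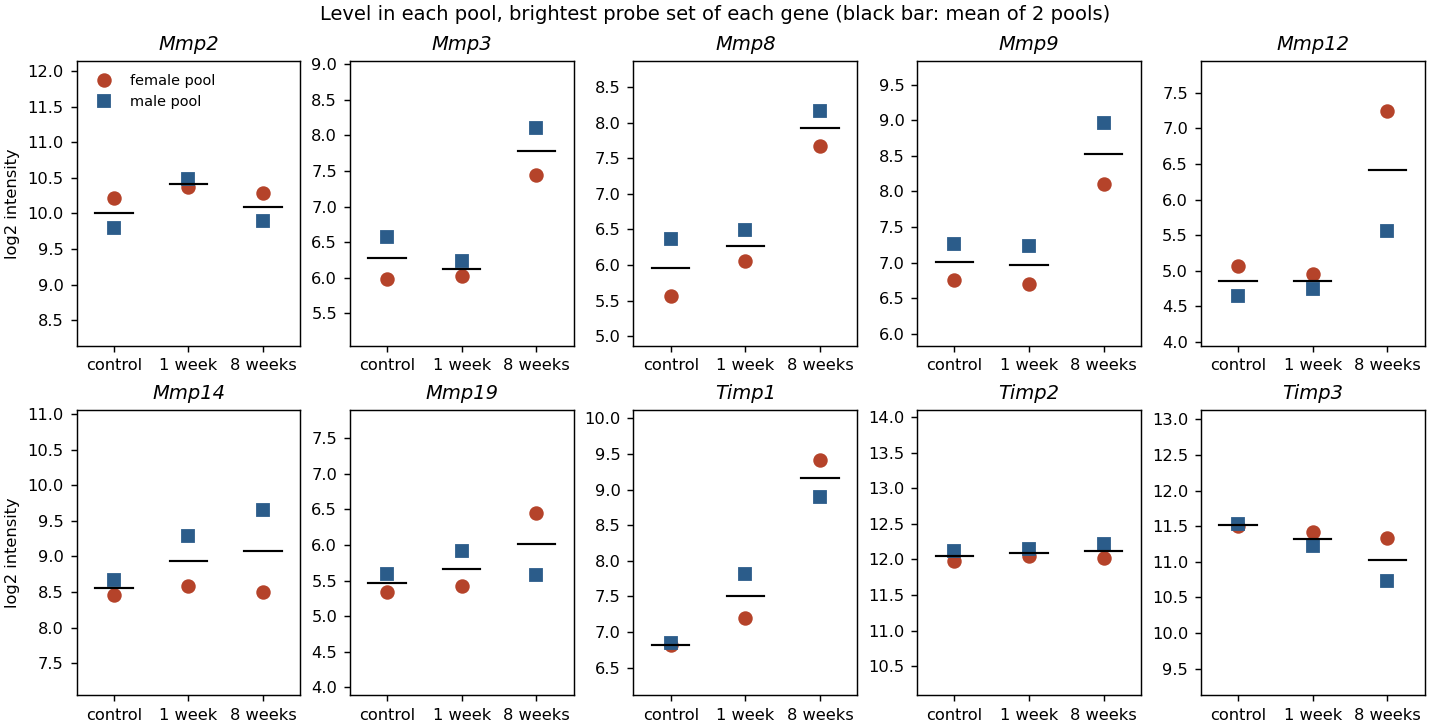
Log2 intensity (vertical axis) of each of the 10 genes at its brightest probe set in the control, 1 week and 8 week pools; circles are female pools, squares male pools and black bars the mean of 2 pools, and each panel spans the same number of log2 units. Both 8 week pools lie above all 4 others for Mmp3, Mmp8, Mmp9, Mmp12 and Timp1, and Timp2 stays between 11.98 and 12.21.

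Mmp8 encodes the neutrophil collagenase, which is stored in neutrophil granules. The female pools read 5.56 in the control, 6.06 after 1 week and 7.67 after 8 weeks on the log2 scale, and the male pools 6.36, 6.49 and 8.17. Both 8 week pools lay above the other 4, and the male pool was the higher of each pair. Mmp8 rose 3.89-fold at 8 weeks, a log2 change of 1.96 ± 0.16 (± standard error; 95% interval 1.55 to 2.37, limma adjusted p = 0.047), with 2.11 in females and 1.81 in males.

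Mmp9, the gelatinase that neutrophils and macrophages release, was measured by 2 probe sets. The brighter, 1416298_at, read 6.75 and 7.26 in the female and male controls, 6.70 and 7.23 at 1 week, and 8.10 and 8.96 at 8 weeks. It rose 2.87-fold at 8 weeks (log2 change 1.52 ± 0.16, limma adjusted p = 0.048), by 1.34 in females and 1.70 in males. The dimmer, 1448291_at, read 6.32 and 5.92, then 5.66 and 6.26, then 7.40 and 7.73, and its change of 1.44 ± 0.27 did not pass (limma adjusted p = 0.0894, from 0.027 to 0.338 over 17 alternatives, in 2 of which it passed). The 2 probe sets of Mmp9 thus gave changes of like size, and on both the 8 week pools lay above every other pool.

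The calls for Mmp8 and Mmp9 stood close to the threshold of 0.05. Across 19 alternative settings their log2 changes ran from 1.71 to 2.13 and from 1.35 to 1.70, and each passed in 9, with adjusted p from 0.00568 and 0.00652 at the lowest to 0.282 and 0.284 at the highest. Neither passed without the female control pool, whose label gives no genotype (log2 changes 1.79 and 1.62, limma adjusted p = 0.241 for both), nor with the other pools left out in turn except the male 8 week pool. Neither passed without a filter on dim probe sets, without sex in the model, with the compared arrays only, with unmoderated variances, or when only probe sets with exactly 1 symbol were tested (adjusted p = 0.0521 for both). The 9 passing settings, and those of Mmp3 and Timp1 at 8 weeks below, include the fit without the male 8 week pool. That fit leaves 1 pool at 8 weeks.

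Mmp12 encodes the macrophage metalloelastase, which degrades elastin. It read 5.06 and 4.64 in the female and male controls, 4.95 and 4.75 at 1 week, and 7.25 and 5.56 at 8 weeks. Both 8 week pools lay above the other 4, with the female pool the higher of them (6.41 ± 1.19, mean ± SD, n = 2). The control and 1 week means were both 4.85, too dim for the filter, so Mmp12 was tested only through its 8 week pools. The change was 1.56 ± 0.39 (2.95-fold, 95% interval 0.55 to 2.58, limma adjusted p = 0.124), with 2.19 in females and 0.93 in males. Without the male 8 week pool the change was 2.25, and without the female one it was 0.87, each with 1 pool left at 8 weeks.

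Mmp3 encodes a stromelysin made mainly by fibroblasts, which also activates other metalloproteinase precursors. It read 5.99 and 6.57 in the female and male controls, 6.03 and 6.24 at 1 week, and 7.45 and 8.10 at 8 weeks. The groups of control and 8 weeks did not overlap, and the pools of each sex differed by nearly the same amount, 1.46 in females and 1.53 in males. The change of 1.50 ± 0.17 (2.83-fold, 95% interval 1.06 to 1.93) missed the threshold at a limma adjusted p of 0.0524, and it passed in 9 of 19 alternatives (adjusted p from 0.0123 to 0.287).

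Timp1, the inhibitor that injury and inflammation induce and that binds the Mmp9 precursor, had the largest 8 week change of the 10 genes. It read 6.81 and 6.84 in the female and male controls, 7.20 and 7.82 at 1 week, and 9.42 and 8.90 at 8 weeks. In deposited intensity units these were 125 and 119, 153 and 222, and 672 and 452. Every 1 week pool lay above both controls and both 8 week pools lay above those. The 8 week change was 2.34 ± 0.29 (5.05-fold, 95% interval 1.58 to 3.09), 2.61 in females and 2.06 in males, and it did not pass (limma adjusted p = 0.0576). It passed in 8 of 19 alternatives (adjusted p from 0.00584 to 0.305), and the change ran from 1.91 without the female 8 week pool to 2.76 without the male one.

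**Figure D2:**
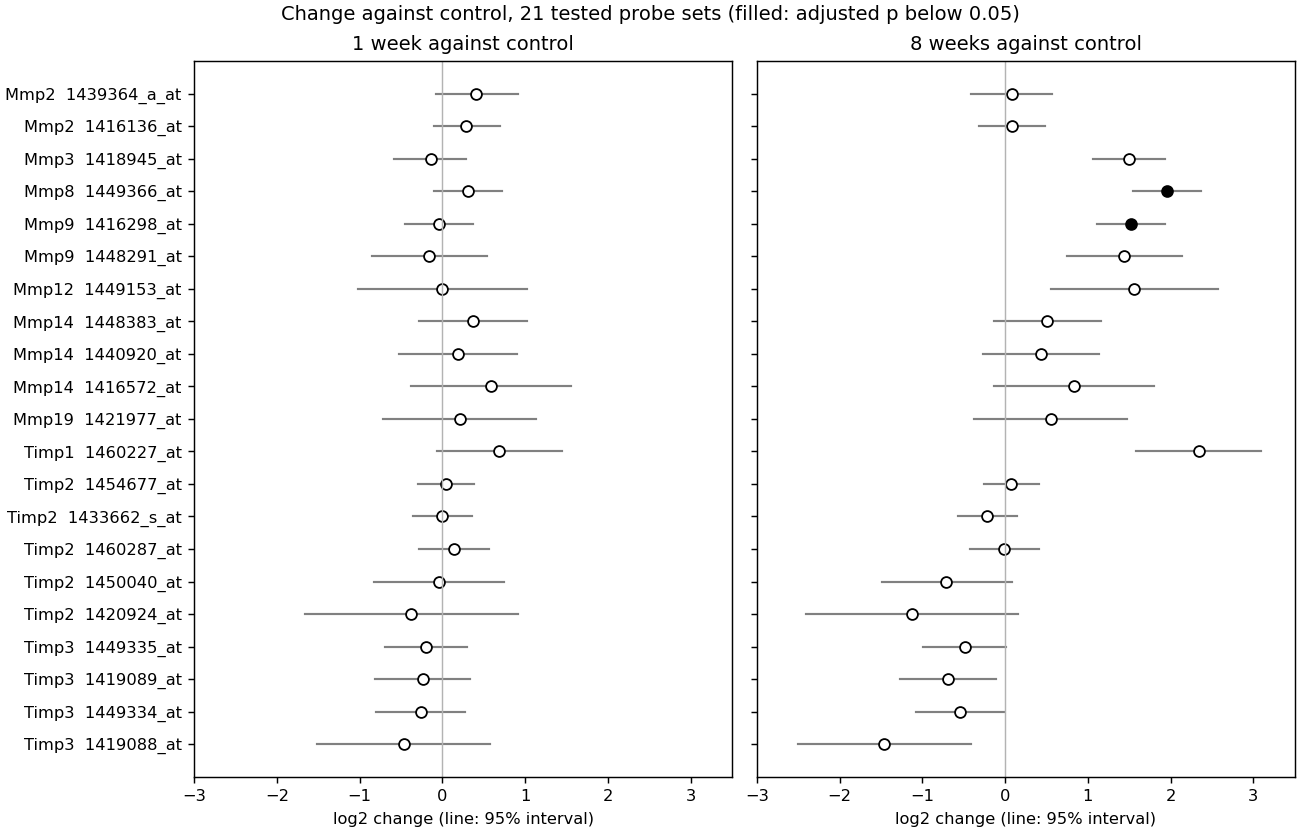
Log2 change against control (horizontal axis) of the 21 tested probe sets after 1 week (left) and 8 weeks (right), with 95% intervals from the limma fit as lines; filled circles passed at an adjusted p below 0.05. After 1 week every interval includes 0, and after 8 weeks the intervals of Mmp3, Mmp8, Mmp9, Mmp12 and Timp1 lie above 0, those of 3 of the 4 Timp3 probe sets lie below 0, and only Mmp8 and 1 probe set of Mmp9 are filled.

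Mmp2, Mmp14 and Timp2 encode the parts of a known activation complex, in which the membrane-bound Mmp14 cuts the Mmp2 precursor while Timp2 holds it in place. None of their probe sets passed at 8 weeks. Mmp2, a gelatinase of mesenchymal cells, read 10.22 and 9.80 in the female and male controls, 10.37 and 10.48 at 1 week, and 10.29 and 9.89 at 8 weeks on its brighter probe set. The 8 week change was 0.08 ± 0.19 on this probe set (95% interval −0.41 to 0.57) and 0.08 ± 0.15 on the other (−0.32 to 0.48), and on both it turned to −0.02 and −0.03 with the values as deposited. The control and 8 week pools overlapped on both probe sets.

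Mmp14 was read by 3 probe sets that did not order the pools alike. The brightest, 1448383_at, gave 8.46 and 8.67 in the female and male controls, 8.59 and 9.29 at 1 week, and 8.50 and 9.65 at 8 weeks, so that the male transgenic pools lay above the male control while the female pools lay within 0.13 of each other. The dimmest, 1416572_at, gave 5.62 and 5.58, then 5.99 and 6.38, then 6.97 and 5.88, with the female 8 week pool the highest. The third, 1440920_at, gave 6.31 and 6.0, 5.97 and 6.71, and 6.51 and 6.67. The 8 week changes were 0.51 ± 0.25, 0.83 ± 0.37 and 0.44 ± 0.27 (limma adjusted p = 0.294, 0.267 and 0.389), all above 0. Without the male 8 week pool, 1416572_at stood at 1.46, and without the female one at 0.19, each with 1 pool left at 8 weeks.

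Mmp19, a secreted metalloproteinase of several tissue cell types, read 5.34 and 5.59 in the female and male controls, 5.43 and 5.91 at 1 week, and 6.45 and 5.58 at 8 weeks on its tested probe set. Only the female 8 week pool stood apart. The change was 0.55 ± 0.35 (1.10 in females and −0.01 in males, limma adjusted p = 0.406), and it was −0.07 without the female 8 week pool. The probe set that was too dim to test read 4.54 and 5.34, 4.32 and 5.34, and 4.82 and 5.58.

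Timp2 is made constitutively by many cells. Its brightest probe set, 1454677_at, read 11.98 and 12.12 in the female and male controls, 12.04 and 12.14 at 1 week, and 12.02 and 12.21 at 8 weeks, the smallest range of the 10 genes at 0.24. The change at 8 weeks was 0.07 ± 0.13 (95% interval −0.26 to 0.41). The next 2 probe sets gave −0.22 ± 0.14 and −0.01 ± 0.16, and the latter was 0.19 with arrays centred on their medians. The 2 dimmer probe sets gave −0.71 ± 0.30 (1450040_at) and −1.12 ± 0.49 (1420924_at), with limma adjusted p = 0.249 and 0.26, and the male 8 week pool was the lowest of the 6 on both: 1420924_at read 7.83 and 8.41 in the female and male controls, 7.97 and 7.51 at 1 week, and 7.75 and 6.25 at 8 weeks. The mean of the Timp2 probe sets, as 1 value per gene, was −0.40 against 0.07 for the brightest.

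Timp3 encodes the inhibitor that stays bound to the matrix and also blocks ADAM proteinases such as Adam17. Its brightest probe set, 1449335_at, read 11.51 and 11.53 in the female and male controls, 11.42 and 11.22 at 1 week, and 11.33 and 10.73 at 8 weeks. All 4 Timp3 probe sets lay lower at 8 weeks in both sexes and with no overlap with control, and none passed. The changes were −0.49 ± 0.19, −0.69 ± 0.22, −0.54 ± 0.20 and −1.46 ± 0.40 from the brightest to the dimmest (limma adjusted p = 0.222, 0.173, 0.213 and 0.141). The 95% intervals of the last 3 lay below 0 (−1.27 to −0.11, −1.08 to −0.01 and −2.50 to −0.41), while that of the brightest was −0.99 to 0.01. The male 8 week pool was the lowest of the 6 on every Timp3 probe set: on 1419088_at the pools read 8.71 and 8.93, 8.76 and 7.93, and 8.07 and 6.65. Without that pool, the change on the brightest probe set was −0.24. The change on 1419088_at ran from −2.13 to −0.79 over 18 alternatives, none of which gave a call on it.

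**Figure D3:**
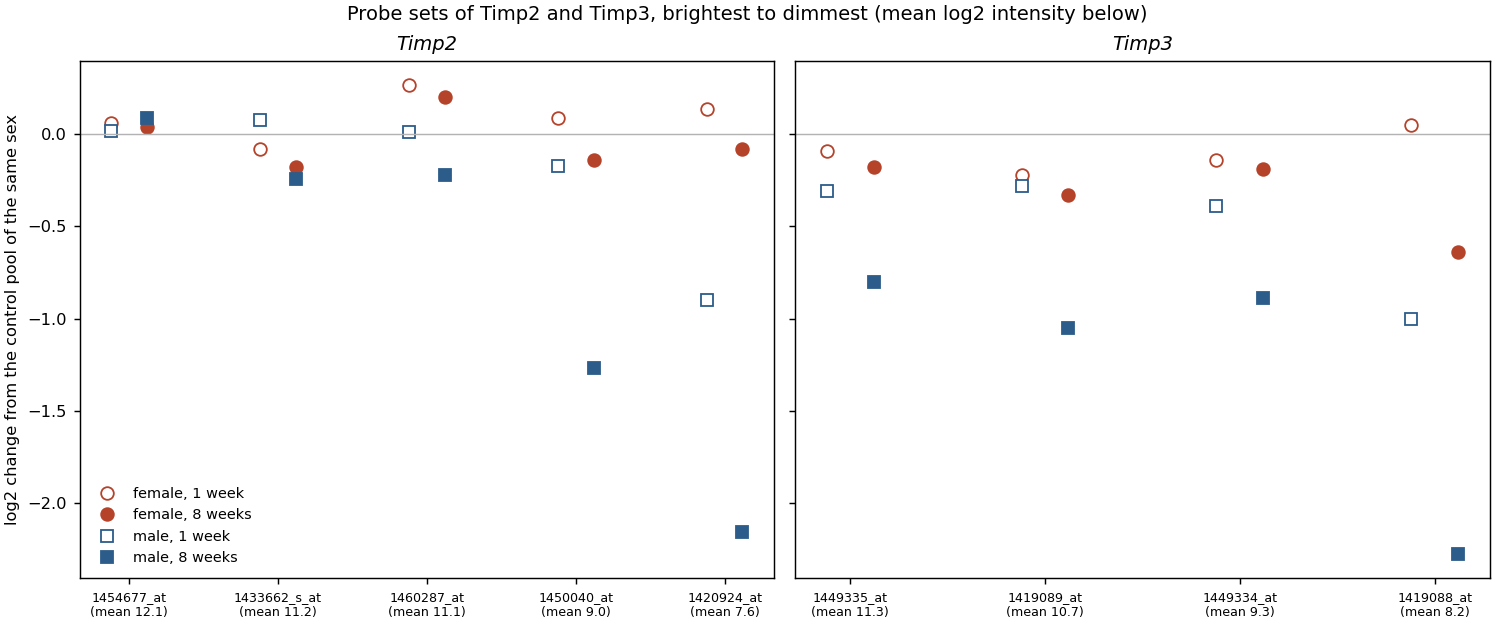
Log2 change from the control pool of the same sex (vertical axis) for the tested probe sets of Timp2 (left) and Timp3 (right), ordered from brightest to dimmest; open symbols are 1 week, filled symbols 8 weeks, circles female and squares male. The male 8 week pool reaches −2.16 on the dimmest Timp2 probe set and −2.28 on the dimmest Timp3 probe set, while the female 8 week pool stays between −0.64 and 0.21.

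After 1 week of activation no member passed in limma, nor did any of the 27022 probe sets (0%, with 1486 or 5.5% at an unadjusted p below 0.05). Of the 21 probe sets described, 0 had an unadjusted p below 0.05 and 0 were at least 2-fold higher in both sexes, as 0.0888% of all were. Their median change was 0 and their range was −0.47 to 0.68. In both sexes 9 were higher and 4 lower, where 27.5% of all were higher and 25.6% lower. Timp1 was at the upper end, 0.68 ± 0.29 (95% interval −0.07 to 1.44; 0.39 in females and 0.98 in males). It was 0.25 without the male and 1.12 without the female 1 week pool. In 5 probe sets (23.8%) both 1 week pools lay above both controls, as in 12.5% of all, and in 3 (14.3%) both lay below, as in 11.1%. The 5 were both of Mmp2 (0.41 ± 0.19 and 0.29 ± 0.15), 1416572_at of Mmp14, Timp1 and 1460287_at of Timp2, and the 3 that lay below were all of Timp3. Mmp3 (−0.14 ± 0.17), Mmp9 (−0.04 ± 0.16) and Mmp12 (0 ± 0.39) stood near 0 after 1 week, and Mmp8 stood at 0.31 ± 0.16. The intervals reached at most 0.72 for Mmp8, 0.37 for the brighter Mmp9 probe set and 0.29 for Mmp3, but 1.02 for Mmp12. The dimmer Mmp9 probe set stood at −0.16 ± 0.27 (95% interval −0.85 to 0.54), with −0.65 in females and 0.34 in males.

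The 2 comparisons above share the control pools. The comparison of 8 weeks with 1 week sets the transgenic groups against each other, and shares the 8 week pools with the first. Its highest values were those of Mmp8 (1.65 ± 0.16), Timp1 (1.65 ± 0.29), Mmp3 (1.64 ± 0.17), Mmp9 (1.56 ± 0.16 and 1.60 ± 0.27) and Mmp12 (1.56 ± 0.39), in each of which both 8 week pools lay above both 1 week pools. None passed in limma (adjusted p = 0.101 for Mmp8, Mmp3 and the brighter Mmp9 probe set, 0.123 for Timp1 and 0.17 for Mmp12), nor did any of the 27022 probe sets (0%), where the smallest adjusted p was 0.101. At an unadjusted p below 0.05 stood 6 of the 21 (28.6%) and 5000 of all (18.5%). Both 8 week pools lay above both 1 week pools in 6 probe sets (28.6%, against 20.7% of all) and below them in 4 (19%, against 17.7%). The 6 included Mmp12, which was bright enough to test only through its 8 week pools. In both sexes 6 were higher and 10 lower, where 36.3% of all were higher and 31.6% lower, and 5 (23.8%) were at least 2-fold higher in each sex, as 0.759% of all were. Mmp3, Mmp8 and Mmp9 passed in 3 alternatives (adjusted p from 0.0135 at the lowest), namely the filter at the 60th percentile, 1 value per gene, and trend and robust variances. Timp1 passed in the last of these (adjusted p = 0.0237; up to 0.538 over 19 alternatives). Mmp2 stood lower at 8 weeks than at 1 week, at −0.34 ± 0.19 and −0.21 ± 0.15, without passing (adjusted p = 0.403 and 0.498).

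With 1 pool of each sex in a group, the sexes were tested over both durations together. The model held no term for duration, so a change between 1 and 8 weeks counted as spread. The standard error was 1.38 for Mmp8 and 1.45 for Timp1, against 0.16 and 0.29 for their 8 week changes. For genes that differed between the durations, the test could therefore miss a difference between the sexes. In that test (transgene by sex interaction) 0 of the 21 and 0 of 27022 probe sets (0%) passed, and 0 and 636 (2.35%) had an unadjusted p below 0.05. The female minus male difference in change ran from −0.86 (1448291_at of Mmp9) to 1.56 (1420924_at of Timp2, 0.03 in females and −1.53 in males, 95% interval −0.55 to 3.67). For the brightest Mmp14 probe set it was −0.71 ± 0.35 (0.09 in females and 0.80 in males), the smallest p among them at 0.102.

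**Figure D4:**
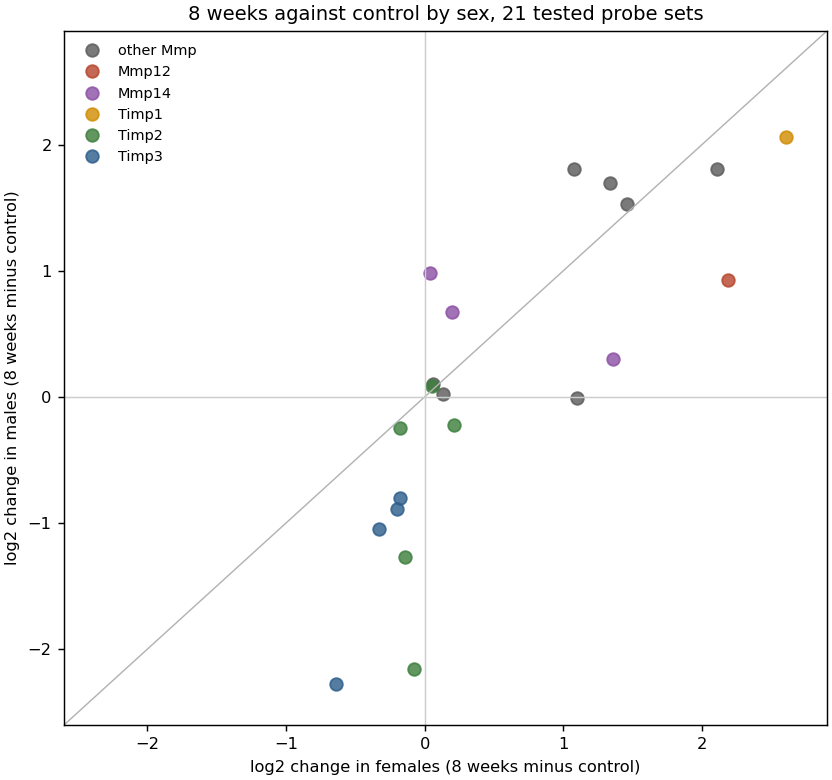
Log2 change after 8 weeks in females (horizontal axis) and males (vertical axis) for the 21 tested probe sets, coloured by gene, with the line of equal change. Mmp3, Mmp8, Mmp9 and Timp1 lie in the upper right near the line, Mmp12 lies to the right of it at 2.19 and 0.93, and the probe sets of Timp3 lie below it.

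Of the other 7 genes of the chromosome 9 row, 6 had a probe set and 1 of these, Mmp7, was bright enough to test. Mmp7, the epithelial matrilysin, read 5.95 and 5.88 in the female and male controls, 5.99 and 5.76 at 1 week, and 5.77 and 6.08 at 8 weeks, a change of 0.01 ± 0.18. The collagenase Mmp13 was at the floor in 5 pools and read 5.04 in the female 8 week pool, the pool in which Mmp12 was also highest. Mmp1a was at the floor in all 6 pools, Mmp1b in 5 and Mmp20 in 4, so no change could be measured. Mmp10 ranged from the floor in the female control to 5.81 in the male 8 week pool.

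Among the other genes of the pathway, listed with earlier results of these data known, none passed in any of the 3 comparisons. Of the 17 other metalloproteinases and Timp4, 5 were tested, with a median 8 week change of 0.10 at their brightest probe sets. The median of the 10 genes was 1.02 at their brightest probe sets and 0.08 over all 21. These 10 were also chosen with earlier results known, so the medians cannot be weighed against each other. The largest values were those of Mmp23 (0.66 ± 0.17, adjusted p = 0.127) and the membrane-anchored Mmp17 (0.60 ± 0.24, adjusted p = 0.233). The 19 tested ADAM and ADAMTS proteinases had a median of 0.04, with Adam19 at 0.45, the versican-cutting Adamts1 at −0.42, the TNF-releasing Adam17 at 0.41 and Adam8 at 0.39. The 12 tested activators, cofactors and other inhibitors had a median of 0.08, with Lcn2, the partner of Mmp9 in neutrophil granules, at 1.54 ± 0.31 (adjusted p = 0.0957), the inhibitor Tfpi2 at 0.96 ± 0.17 (0.0833), the hyaluronan receptor Cd44 at 0.61 and Thbs2 at 0.54 ± 0.28. Thbs2 was dim, with a control mean of 4.92. It was at 1.06 in females and 0.01 in males, and its control and 8 week pools overlapped.

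The 8 tested other matrix-degrading proteinases had a median 8 week change of 0.70 at their brightest probe sets, and 7 of 8 were higher in both sexes. Over all probe sets, bright or dim and several per gene, 36.5% were. This list was also chosen with earlier results of these data known, so the shares cannot be weighed against each other. The largest values were those of 3 cathepsins, which are lysosomal proteinases: Ctsk (1.19 ± 0.19, adjusted p = 0.075), Ctss (1.16 ± 0.16, 0.0637) and Ctsd (0.79 ± 0.14, 0.0829), followed by the mast cell proteinase Mcpt4 (0.72 ± 0.53). Mcpt4 differed between the sexes, at 1.60 in females and −0.16 in males, and its control and 8 week pools overlapped. Cma1 stood at 0.68 ± 0.18 (0.73 in females and 0.63 in males). The other 2 cathepsins tested stood at 0.18 ± 0.13 (Ctsb, 0.46) and 0.25 ± 0.14 (Ctsl, 0.331). The neutrophil serine proteinases Elane and Ctsg were at the floor in all 6 pools. The matrix substrates had a median of 0.01 over 19 tested genes at 8 weeks and 0.20 at 1 week. At 1 week 13 of 19 were higher in both sexes, and 27.5% of all probe sets were. The same limits hold for these shares. At 8 weeks elastin, the substrate of Mmp12, stood at 1.01 ± 0.28 (Eln, adjusted p = 0.139), Col15a1 at 0.98 ± 0.18 (0.0912), Tnc at 0.54 ± 0.40 and Fn1 at 0.32 ± 0.13. Eln was at 0.53 in females and 1.49 in males. Tnc was at −0.15 in females and 1.24 in males, and its control and 8 week pools overlapped. After 1 week, when Mmp12 stood at 0 ± 0.39, Eln was at 1.33 ± 0.28, Col15a1 at 1.08 ± 0.18 and Tnc at 0.84 ± 0.40, none of which passed (adjusted p = 0.894, 0.894 and 0.919). Tnc was then at 0.09 in females and 1.59 in males. From 1 to 8 weeks Eln stood at −0.32 ± 0.28.

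**Figure D5:**
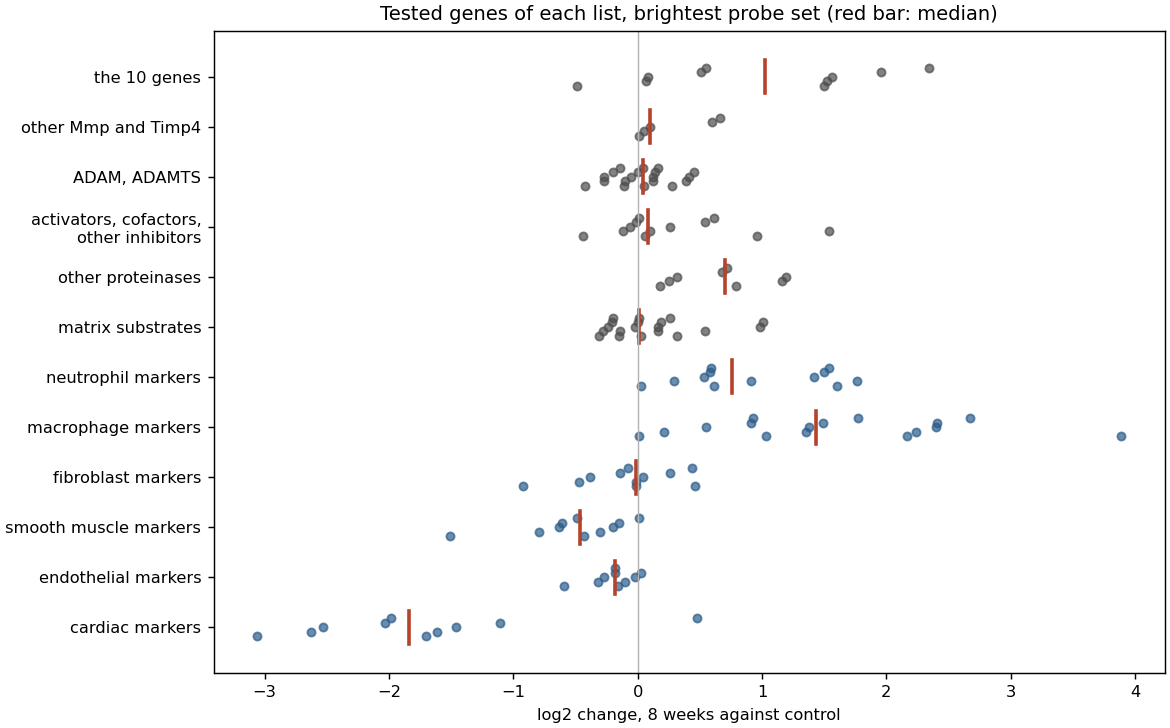
Log2 change after 8 weeks (horizontal axis) of the tested genes of each list at the brightest probe set of each gene; each point is a gene, red bars are list medians, grey points are proteinase and matrix lists and blue points are cell type markers. The medians are 1.02 for the 10 genes, 0.76 for neutrophil markers and 1.43 for macrophage markers, against −0.46 for smooth muscle and −1.84 for heart muscle markers. The 10 genes and the lists were chosen with earlier results of these data known.

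Markers of neutrophils and macrophages, which make Mmp8, Mmp9 and Mmp12, were higher in the same pools. The 13 neutrophil markers on the array (none of them a metalloproteinase, with Lcn2 in this list also) summed to 4263 to 4581 in the controls, 4257 to 5175 at 1 week and 11440 to 11990 at 8 weeks. Of the 12 tested, 11 were higher in both sexes at 8 weeks (36.5% of all probe sets were) and 2 passed (0.207% of all rose), the lectin receptor Clec4d (1.60 ± 0.13, limma adjusted p = 0.047) and the receptor Trem1 (1.50 ± 0.15, 0.047), with the calprotectin subunit S100a9 at 1.76 ± 0.22. The sums are weighted to the brightest genes, and the median change of the 12 was 0.76. All cell type marker lists were counted at the brightest probe set of each gene and chosen with earlier results known. Their shares therefore cannot be weighed against those of all probe sets. Csf3r stood at 0.61 ± 0.20, Ngp at 0.58 ± 0.13 and Cxcr2 at 0.53 ± 0.14. The granule enzyme Mpo stood at 0.03 ± 0.39 (−0.29 in females and 0.36 in males) and Cd177 at 0.29 ± 0.23. Ltf stood at 0.59 ± 0.33 (0 in females and 1.18 in males), with the control and 8 week pools overlapping. The granule peptide gene Camp, too dim to test, was at the floor in 1 pool and no neutrophil marker was at the floor in all. At 8 weeks Camp differed from control by −1.14 in females and 1.65 in males. The 16 macrophage markers summed to 6985 to 7543, 7340 to 9413 and 14430 to 15580, 15 of 16 were higher in both sexes at 8 weeks, against the same 36.5%, and Ms4a7 passed (2.40 ± 0.25, limma adjusted p = 0.048), with Chil3 at 3.89 ± 0.95, Siglecf at 2.67 ± 0.54 and Atp6v0d2 at 2.41 ± 0.61. Smaller macrophage values were those of Csf1r (0.01 ± 0.14), Lpl (0.21 ± 0.14) and Cd14 (0.55 ± 0.20). Marco (2.17 ± 0.31), with means of 4.57 in the controls and 4.78 at 1 week, was tested only through its 8 week pools. In whole lung, more cells of a type and more RNA per cell cannot be told apart, and the part of these cells in the values of Mmp8, Mmp9, Mmp12 and Timp1 was not tested.

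Mmp2, Mmp3, Timp2 and Timp3 are made largely by stromal cells. The 11 fibroblast markers summed to 23170 to 24190 in the controls and 21150 to 23700 at 8 weeks, with a median change of −0.01, and none was at the floor. In both sexes 3 were higher and 4 lower. The largest changes were those of Fbln2 (−0.92 ± 0.38), Dcn (−0.47 ± 0.13), Thy1 (0.46 ± 0.16) and Lum (0.44 ± 0.14), none passing. The 10 smooth muscle markers, the cells in which the transgene is driven, summed to 9390 to 11320 in the controls, 12110 to 12620 at 1 week and 7795 to 8316 at 8 weeks, and 9 of 10 were lower in both sexes at 8 weeks (29% of all probe sets were), none passing. The 9 endothelial markers had a median of −0.18, and the 5 mesothelial markers one of −0.01. The part of these cells in the Timp3 values was not tested.

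The genes closest in pattern to each member were found by the root mean square difference in mean-centred log2 intensity over the 6 pools, among 12620 genes. For Mmp8 these were Wfdc21 (0.13), Clec4d (0.18) and the chemokine receptor Ccr1 (0.20), and for Mmp9 they were Clec4d (0.13), Avpr1a (0.15) and Hkdc1 (0.16). For Mmp3 they were Lrp12 (0.14), Hkdc1 (0.14) and the macrophage glycoprotein Gpnmb (0.15), and for Timp1 Ccr1 (0.31), Pilra (0.31) and Wfdc17 (0.32). Mmp12 had B3gnt7 (0.32), the heme oxygenase Hmox1 (0.33) and Mlc1 (0.37). Mmp14 stood nearest to Ogg1 (0.10), Fbxo2 (0.10) and Cd5l (0.11), and Mmp19 to Zfp324 (0.08), Pola1 (0.10) and Cenpm (0.11). Mmp2, Timp2 and Timp3 ranged over less than 1 on the log2 scale at their brightest probe sets and were not matched.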

How the data were processed

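The authors deposited signal intensity values on a linear scale, per the file headers and values, with a lowest value of 10; how probe signals were summarised and scaled is not given in the sources used here. The labels' protocols describe biotin-labelled antisense RNA, and freezing and column extraction for the transgenic samples only. From these values the 6 arrays were quantile normalized, floored at the 20th percentile (15.46) and put on the log2 scale. Probe sets with a mean above the 40th percentile were fitted in limma 3.58.1 (R 4.3.3) on group plus sex, all arrays together (2 residual and 2.77 prior degrees of freedom), with Benjamini-Hochberg adjustment over 27022 probe sets and a threshold of 0.05. A second model held transgene, sex and their interaction, with no term for duration. The script was tested on simulated data. Platform symbols were used: 34945 probe sets had 1, 932 several and 9160 none. All member probe sets are given, each gene led by its brightest. From the pathway, neutrophil, macrophage and fibroblast lists, genes that passed and those with the largest changes, up to 4 in all, are named for 8 weeks. Some with smaller changes are given beside them. The 3 nearest genes are given for members with a range above 1. Members, lists and tests were chosen with earlier results of these data known. No library or pool was dropped from the main fit. Alternatives covered normalization, floor, filter, probe set choice, model terms, variance moderation and each array left out. Plots used matplotlib 3.10.9 (Python 3.11.15).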

Additional observations from a re-analysis of the deposited data

How the results depend on the processing

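The number of pools, 1 of each sex in a group, limits every comparison. At 8 weeks 161 probe sets passed; the count was 461 with values as deposited, 705 with arrays centred on their medians, 464 with a floor at the 40th percentile, 583 with log2(value + 16), 505 when the 60th percentile was the filter and 1916 with trend and robust variances. It was 0 with no filter, without the sex term (no replicate block), with only the arrays compared and with least squares, 1 on probe sets with exactly 1 symbol (a choice made after seeing the data), and 0 to 1071 with an array left out, the highest without the male 8 week pool. At 1 week the count was 1 with 1 value per gene and 3 with trend and robust variances, for 8 weeks against 1 week it was 118, 752 and, at a 60th percentile filter, 62, and for the interaction it was 1 with least squares; the cause was not tested. Of the calls at 8 weeks 34.8% were higher, against 16.5% as deposited and 45.1% with arrays centred, where the median of all probe sets was −0.13 and 0.14, and 76% with 1 value per gene (158 higher and 50 lower), which turns the majority. Of 381 alternative values of the members at 8 weeks, 330 kept direction and call, 20 lost a call, 21 gained one and 10 changed sign. As deposited, Mmp2 read −0.02 and −0.03 at 8 weeks on its brighter and dimmer probe sets, and with an array left out −0.06 to 0.22 and −0.04 to 0.20. Timp2 as 1 value per gene was −0.05 at 1 week, −0.40 at 8 weeks and −0.35 between them, since this averages the dimmer probe sets, and 1460287_at was 0.19 with arrays centred and −0.18 to 0.16 with an array left out. With an array left out, 1 week values ran from −0.35 to 0.06 (Mmp3), −0.14 to 0.06 (Mmp9), −0.19 to 0.60 (Mmp19) and −0.41 to 0.01 (Timp3). Mmp19 ran from −0.07 to 1.16 at 8 weeks and −0.27 to 0.96 against 1 week, and Mmp14 from −0.21 to 0.48 against 1 week.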

Other observations

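The order of the sexes was the same in all 3 groups for 10 of the 23 probe sets. The male pool was the higher in 6, which were those of Mmp3 and Mmp8, the brightest of Mmp9, Mmp14 and Timp2, and the untested one of Mmp19. The female pool was the higher in 4, which were those of Mmp12, the dimmer of Mmp2, 1433662_s_at of Timp2 and 1419089_at of Timp3. For Mmp8 the male pools read 6.36, 6.49 and 8.17 and the female pools 5.56, 6.06 and 7.67, while for Mmp12 the male pools read 4.64, 4.75 and 5.56 and the female pools 5.06, 4.95 and 7.25. The share of all probe sets with the same order in every group was not counted, so the 10 are a description of these pools only. The sex difference itself was not tested.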
